A study of Mus musculus with 12 samples.

Results

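Dusp26 encodes dual-specificity phosphatase 26, and it is described here across 12 RNA sequencing libraries of cultured mouse pancreatic islets. It was selected by its gene symbol in the GENCODE M21 annotation, and the gene total was the sum of the counts of all its transcripts. It is 1 of 22141 genes, and its 5 transcripts are 5 of the 71524 transcripts in the deposited table. Donor mice were wild-type males aged 10 to 12 weeks, and about 120 islets went into each culture. The islets received vehicle, vehicle with C3a, palmitate, or palmitate with C3a, with 3 libraries in each of these 4 groups. The labels used here give no dose and no time. They do not state if replicates were separate animals or separate cultures. The p-values therefore describe the spread among these 12 libraries, which may be technical. Sequencing ran in 2 batches: batch 1 held replicate 1 of each group (4 libraries), and batch 2 the remaining replicates (8 libraries). In the column headers, replicate 2 of every group carries the same date, replicate 3 a later one, and replicate 1 none. Published work on this experiment linked Dusp26 to C3a and to beta cell identity. The gene was therefore chosen with such results known, and its values are not independent evidence of that link.

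Dual-specificity phosphatases remove phosphate from tyrosine and from serine or threonine of their substrates through an active-site cysteine. DUSP26 is one of the atypical members, which are small and lack the docking domain that the classical MAP kinase phosphatases use to bind their kinases. It is expressed mainly in neural and neuroendocrine tissue, and published substrates and partners include the MAP kinase p38, the tumour suppressor p53, the death adaptor FADD, and subunits of the kinesin-2 motor. Palmitate is a saturated fatty acid used to stress beta cells, the insulin-secreting cells of the islet. C3a is a fragment of complement component C3 that acts through the receptor C3ar1. The comparisons ask whether palmitate changed the level of Dusp26 and whether C3a did so with or without palmitate.

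In the mouse genome (build GRCm38) Dusp26 lies on the plus strand of chromosome 8 from 31089471 to 31097047 (ENSMUSG00000039661.14), and no other annotated gene overlaps it. Of its transcripts, 3 code for protein. Dusp26-201 has 5 exons and 1938 bases. Dusp26-205 has 4 exons and 1627 bases. Dusp26-203 has 3 exons and 1524 bases, and its start lies 2179 bases downstream of the start of Dusp26-201. The other two, Dusp26-204 (663 bases) and Dusp26-202 (698 bases), are annotated as retained introns. The coding transcripts differ in their first exons and 5′ untranslated ends, and all 3 hold 1 identical coding sequence of 636 bases, stop codon included, for 211 residues. A part of that coding sequence is shown because it holds the catalytic site and is common to the transcripts whose shares are compared here. The capitals mark the codons of the phosphatase signature, a histidine and the catalytic cysteine followed by 5 codons and an arginine, and the stretch runs from coding base 421 to 504 with the capitals from 451 to 474.
Dusp26 catalytic site: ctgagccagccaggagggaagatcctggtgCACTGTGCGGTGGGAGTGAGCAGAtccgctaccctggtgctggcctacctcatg

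Libraries held 22216420 to 50264695 counts, with 22216420 to 26110989 in batch 1 and 35876350 to 50264695 in batch 2. Markers of beta cells were abundant in every library, at summed CPM (counts scaled to library size) of 134016 to 191748, and markers of alpha cells summed to 25188 to 40012. Markers of acinar cells, which make up the tissue around islets, summed to 1509 to 3130 CPM. Dusp26 itself was counted 410 to 935 times per library, which puts it in the moderate range of islet genes. Per length, its level in vehicle was 18.2 ± 4.87 TPM (counts scaled to transcript length and library size, SD, n = 3), and 5359 of 18299 protein-coding genes (29.3%) were higher. Vehicle replicates 1, 2 and 3 held 23.7, 16.2 and 14.5 TPM, and 6.48 of the 23.7 was assigned to the retained-intron form Dusp26-204. The mean, the SD and the rank rest on how counts were assigned among transcripts. Among 25 genes of the dual-specificity phosphatase family it ranked 7th by mean TPM in vehicle. Dusp11 (30.5 ± 6.30 TPM, SD, n = 3), Dusp3 (28.5 ± 2.84), Dusp5 (23.2 ± 6.27) and Dusp10 (22.3 ± 3.41) had higher means. The nearest neighbours in that order were Dusp28 (18.8 ± 4.53 TPM), Dusp19 (18.2 ± 1.89) and Dusp4 (15.4 ± 4.41), and their means differed from that of Dusp26 by less than its SD.

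Dusp26 fell with palmitate. In vehicle, replicates 1, 2 and 3 held 21.9, 19.1 and 17.5 CPM. In palmitate they held 16.2, 15.0 and 13.2 CPM. Every palmitate library was lower than every vehicle library. The means were 19.5 ± 2.23 CPM in vehicle and 14.8 ± 1.5 in palmitate (SD, n = 3 each), and the fitted log2 fold change was -0.39 ± 0.12 (SE), a change of -23.9% with a 95% interval from -36.5% to -8.81%. The Benjamini-Hochberg adjusted p was 0.0307 by edgeR's quasi-likelihood test over all 15794 genes tested. Palmitate changed much of the islet transcriptome: 25.4% of the genes tested passed that threshold against vehicle, and 12.0% passed it as lower. Of all genes tested, 12.2% had a lower log2 change than Dusp26, and 3435 genes had a smaller p in the same edgeR test. In RNA from whole islets, fewer cells that express the gene and less of its RNA per cell cannot be told apart.

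With C3a present, palmitate again gave lower values. Replicates 1, 2 and 3 of vehicle with C3a held 20.9, 20.99 and 14.6 CPM, and those of palmitate with C3a held 15.7, 15.4 and 13.1 CPM. The groups overlapped through replicate 3 of vehicle with C3a, the lowest of the 6 libraries without palmitate, which lay below 2 of the 3 libraries of palmitate with C3a. The means were 18.8 ± 3.68 and 14.7 ± 1.46 CPM (SD, n = 3 each). The log2 fold change was -0.35 ± 0.12 (SE, adjusted p = 0.0480, edgeR quasi-likelihood), where 26.9% of genes tested were called and 13.1% were called lower. Against plain vehicle, palmitate with C3a had a log2 fold change of -0.40 ± 0.12 (adjusted p = 0.0291, edgeR), with 25.3% of genes called and 12.3% called lower.

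**Figure D1:**
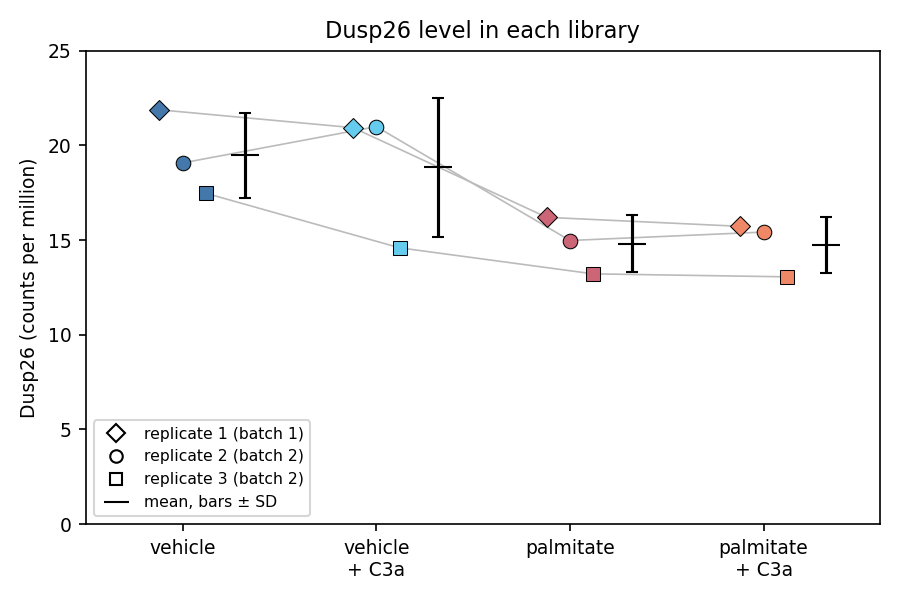
Dusp26 in CPM on the vertical axis for the 12 libraries by group. Each point is a library, grey lines join libraries with the same replicate number, and black bars show the mean ± SD of 3 libraries. Libraries with palmitate lie between 13.1 and 16.2 CPM, and those without it between 14.6 and 21.9 CPM.

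Libraries with the same number were compared directly. Palmitate minus vehicle was -0.43, -0.35 and -0.40 on the log2 scale in replicates 1, 2 and 3. With C3a present the same differences were -0.41, -0.44 and -0.16. All 6 differences were below 0, and the smallest one was again that of replicate 3 with C3a. Within batch 1 the 2 libraries without palmitate held 20.9 and 21.9 CPM and the 2 with palmitate 15.7 and 16.2 CPM. Within batch 2 the 4 libraries without palmitate ran from 14.6 to 20.99 CPM and the 4 with palmitate from 13.1 to 15.4 CPM, so the groups were apart in batch 1 and overlapped in batch 2.

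Averaged over both C3a conditions, 6 libraries with palmitate (14.8 ± 1.32 CPM, SD) were set against 6 without (19.2 ± 2.74 CPM). The log2 fold change was -0.37 ± 0.08 (SE), which is -22.8% with a 95% interval from -32.1% to -12.2%, and the adjusted p was 0.0041 by edgeR's quasi-likelihood test. In that average 39.7% of the genes tested were called and 19.4% were called lower, and 10.6% had a lower log2 change than Dusp26. An exact two-sided permutation test on log2 CPM, with labels exchanged within batch and C3a condition, gave a difference of -0.37 and p = 0.0278 over 144 arrangements, where the smallest possible p is 0.0139. For 3 libraries against 3 the same exact test has 12 arrangements and cannot go below 0.167. It gave 0.167 without C3a and 0.333 with C3a.

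C3a left no detectable difference in Dusp26, with or without palmitate. Within palmitate, C3a minus no C3a was -0.04, 0.04 and -0.02 on the log2 scale in replicates 1, 2 and 3, so the libraries lay almost on top of each other. The fitted log2 fold change was -0.01 ± 0.12 (SE), with a 95% interval from -0.27 to 0.26, that is from -17.0% to 19.6% (adjusted p = 1.00, edgeR). Within vehicle the same-numbered differences were -0.06, 0.14 and -0.26. Their signs were mixed, and the fitted log2 fold change was -0.05 ± 0.12 with an interval from -0.31 to 0.21.

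Over both conditions the average C3a effect on Dusp26 was -0.03 ± 0.08 on the log2 scale (SE, 6 libraries against 6), with a 95% interval from -13.6% to 11.6% (adjusted p = 0.999, edgeR). The exact permutation test within batch gave p = 0.736. The interaction, which asks whether the palmitate effect differed with C3a, was 0.04 ± 0.17 on the log2 scale with a 95% interval from -0.33 to 0.41. With the replicate number as a block, which treats same-numbered libraries as paired, the interaction was 0.05 ± 0.11 (SE) and the average C3a effect -0.03 ± 0.05. Neither passed. Passing the adjustment over all genes tested takes an effect well above these errors. Effects of C3a inside the 95% intervals could therefore be missed with these libraries. Hardly any gene passed the threshold for C3a. The share called was 0.0% within palmitate, 0.0% within vehicle, 0.0% for the interaction and 0.00633% (1 gene) for the average. At an unadjusted p under 0.05 these comparisons held 430, 347, 251 and 555 genes, and DESeq2's Wald test called 2, 15, 0 and 2 genes.

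**Figure D2:**
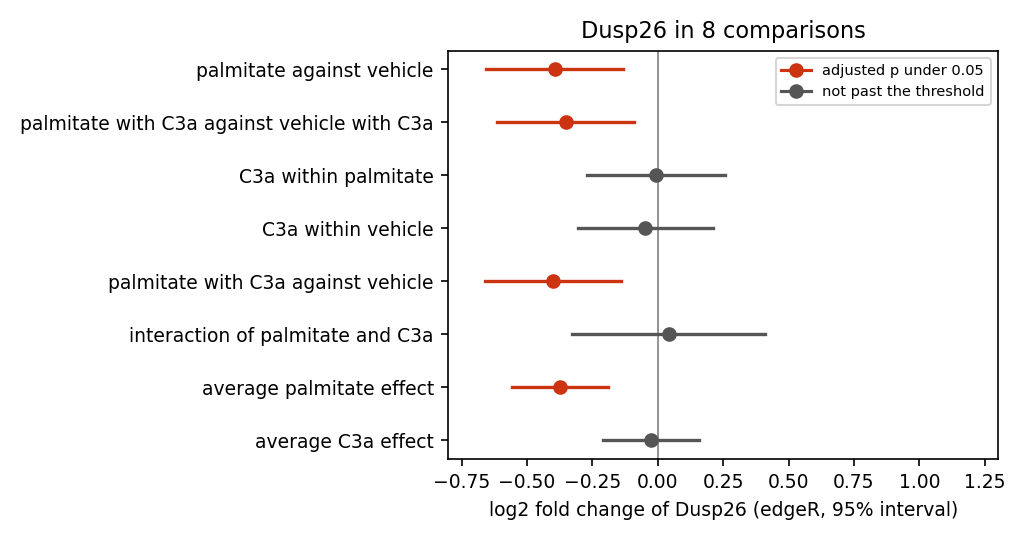
Log2 fold change of Dusp26 on the horizontal axis, with its 95% interval from edgeR, in 8 comparisons. Red marks an adjusted p under 0.05. The 4 comparisons with palmitate against no palmitate lie between -0.40 and -0.35, and the intervals of the 3 C3a comparisons and of the interaction include 0.

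The call of the average over 6 and 6 libraries was kept more often than those of 3 with 3 when single libraries were left out. Leaving out each library in turn kept the average palmitate effect between -0.44 and -0.30 and past the threshold in 12 of 12 cases (adjusted p from 0.000372 to 0.0131, edgeR). Palmitate against vehicle stayed between -0.45 and -0.35 and passed in 7 of 12 cases. It missed the threshold without vehicle replicate 1 (adjusted p = 0.103), 2 (0.0933) or 3 (0.0536), and without palmitate replicate 1 (0.0979) or 3 (0.112). With C3a present the effect ran from -0.20 without replicate 2 of vehicle with C3a (adjusted p = 0.224) to -0.49 without replicate 3 of that group (0.0047), and it passed in 2 of 12 cases, the other being without replicate 2 of palmitate with C3a (0.0405). These leave-one-out fits held batch, not the replicate number, so differences between replicates 2 and 3 stayed in their error. With all libraries and the replicate number as a block, palmitate against vehicle had an SE of 0.08 and an adjusted p of 0.00256 (edgeR). With C3a present the adjusted p was 0.00553 in that fit. Leaving out libraries was not repeated with that block. Batch 2 alone gave an average palmitate effect of -0.35 with an adjusted p of 0.0684 (edgeR), and the single comparisons missed the threshold there and without the batch term.

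**Figure D3:**
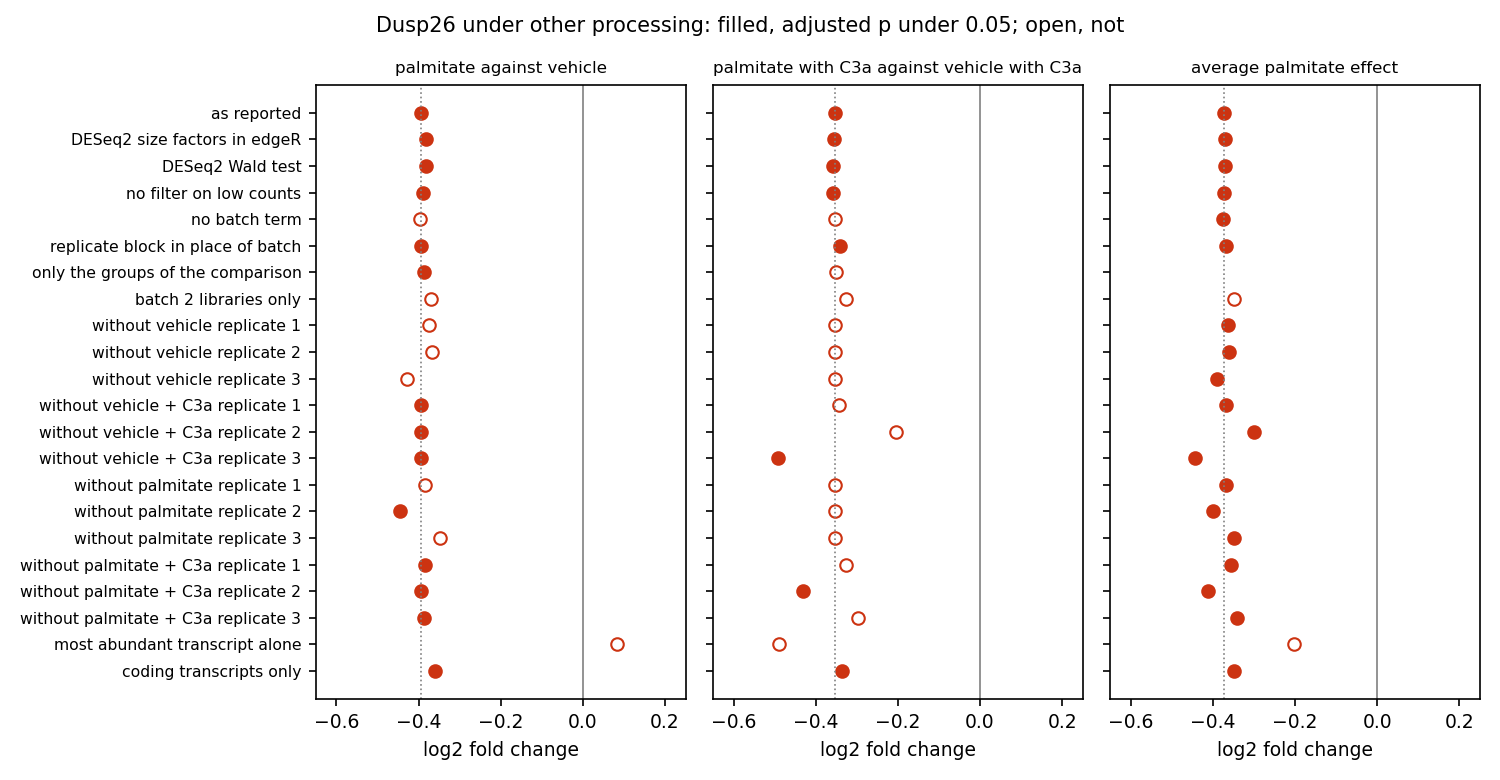
Log2 fold change of Dusp26 on the horizontal axis under each processing alternative (rows) for 3 palmitate comparisons. Filled points have an adjusted p under 0.05, open points do not, and the dotted line is the value as reported. For the gene total every point lies below 0, and the point for the most abundant transcript alone lies above 0 (0.08) in palmitate against vehicle.

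Dusp26 varied more between libraries of a group than most genes of its level. Its residual SD on the log2 scale, after group and batch, was 0.167, against a median of 0.0977 for 2624 genes with a mean level within 1.5-fold of it, and 12.2% of those genes had a larger one. Replicate 3 was the lowest library of each of the 4 groups, and this shared difference from replicate 2 stayed in that residual SD. With the replicate number as a block in place of batch, the SE of the average palmitate effect was 0.05, against 0.08 with batch. Batch 2 had a gene total lower by 0.21 on the log2 scale than batch 1, and 41.0% of genes tested had a larger batch difference in size.

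The transcript make-up of Dusp26 differed between the sequencing batches. Over all 12 libraries, the shares of Dusp26-201 and Dusp26-203 showed no detectable difference by treatment. In the 4 libraries of batch 1, Dusp26-203, the short form with the downstream start, took 74.3% of the counts in vehicle, 63.8% in vehicle with C3a, 62.4% in palmitate and 71.6% in palmitate with C3a. In the 8 libraries of batch 2 it took 10.6% to 27.3%. The full-length Dusp26-201 showed the mirror image, with 10.2% to 30.0% in batch 1 and 71.6% to 86.3% in batch 2. These ranges do not touch, and counting error is far smaller than the gap. For Dusp26-203, the 95% Wilson interval was 70.4% to 77.8% in vehicle replicate 1 and 15.7% to 20.7% in vehicle replicate 2, counting error only. On the log2 scale the fitted difference of batch 2 from batch 1 was 1.85 for Dusp26-201, -2.23 for Dusp26-203 and -3.66 for Dusp26-204.

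The minor transcripts were unevenly assigned as well. Dusp26-204, a retained-intron form, held 7.56% to 14.0% of counts in batch 1 (31 to 74 counts) and 0.0% to 1.8% in batch 2 (0 to 15 counts). Dusp26-202 held 0 to 10 counts. The third coding form, Dusp26-205, was at 0 in 10 libraries, held 1 count in vehicle replicate 1, and held 64 counts (8.57%) in vehicle replicate 3. Every group held libraries of both batches, but shares also differed between groups within a batch. In batch 1, Dusp26-204 held 14.0% in vehicle and 12.5% in vehicle with C3a. It held 7.56% in palmitate and 9.62% in palmitate with C3a. Dusp26-201 held 10.2% in vehicle and 30.0% in palmitate in that batch. With C3a the order was the other way, at 23.7% in vehicle with C3a and 18.8% in palmitate with C3a. The share of Dusp26-204 was not tested by treatment, nor whether the batch shift was equal in every group. The coding sequence shown above is the same in Dusp26-201, Dusp26-203 and Dusp26-205, so a shift among them changes no residue of the encoded protein.

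**Figure D4:**
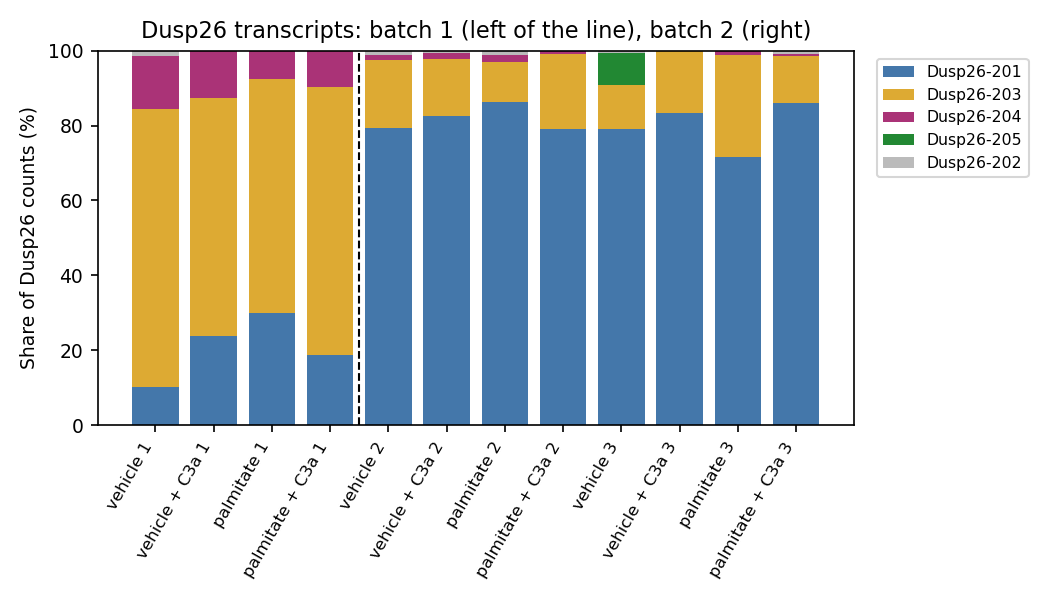
Share of Dusp26 counts in percent on the vertical axis for each of 5 transcripts (colours) in each library, with batch 1 left of the dashed line and batch 2 right of it. Dusp26-203 is the major form in all 4 batch 1 libraries, at 62.4% to 74.3%, and Dusp26-201 in all 8 batch 2 libraries, at 71.6% to 86.3%.

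The treatments were then compared across both batches. The share of Dusp26-201 was 2.24 percentage points higher with palmitate (6 libraries against 6, exact permutation within batch, p = 0.667), and that of Dusp26-203 was 0.77 points higher (p = 0.847). With C3a the differences were 2.87 points for Dusp26-201 (exact p = 0.5) and -0.87 points for Dusp26-203 (exact p = 0.833). Of the transcripts, 3 passed the filter on low counts, and edgeR called none of them in any of the 8 comparisons. Dusp26-201 had a log2 fold change of 0.08 ± 0.28 (SE, adjusted p = 0.958) for palmitate against vehicle and -0.20 ± 0.20 (adjusted p = 0.652) for the average palmitate effect. Dusp26-203 had -0.27 ± 0.36 (adjusted p = 0.859) and -0.27 ± 0.26 (adjusted p = 0.638). The transcript errors are several times those of the gene total, so a fall of the size seen for the total could not be detected in either form. At the transcript level 3.99% of 41537 transcripts were called for palmitate against vehicle and 10.4% for the average palmitate effect, in either direction. Palmitate with C3a had 4.76% called against vehicle with C3a and 3.98% against vehicle, and the C3a comparisons had 0.0%. The sum over the 3 coding transcripts fell as the total did, with a log2 fold change of -0.35 for the average palmitate effect.

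A change of the leading transcript between batches was uncommon among genes. Of 7830 genes with at least 2 transcripts and 100 counts in every library, 179 (2.29%) had 1 leading transcript in all libraries of batch 1 and another in all of batch 2, Dusp26 among them. In 122 of the 179 (68.2%) the leading transcript was the shorter one in batch 1, as for Dusp26. Its largest share change between batches was 60.3 points, against a median of 4.05 over those genes, and 0.766% had a larger one. What made the batches differ was not tested.

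Of the genes next to Dusp26, Rnf122, which encodes a RING finger protein, starts 14773 bases further on the same strand. It held 2.35 to 4.88 CPM over the 12 libraries, with a log2 fold change of -0.49 ± 0.21 (SE, adjusted p = 0.11) for palmitate against vehicle and -0.37 ± 0.15 (adjusted p = 0.062) for the average, both by edgeR. The nearest protein-coding gene on the other side, Unc5d, a netrin receptor 1869835 bases away, held 135 counts in all 12 libraries together. Neither passed the threshold.

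The genes of the published substrates and partners were called about as often as genes at large. Of 19 genes for substrates and partners, all tested, 2 rose and 6 fell in the average palmitate effect, 42.1% against the 39.7% called over all genes. Mapk14, which encodes the p38 alpha kinase, had a log2 change of 0.04 ± 0.03 (SE) and did not pass (adjusted p = 0.233, edgeR), and Fadd had -0.03 ± 0.04 (adjusted p = 0.633). Mapk3, the kinase ERK1, fell by 0.33 on the log2 scale, and its libraries ran from 175 to 189 CPM in vehicle and from 144 to 160 CPM in palmitate. Trp53, the gene for p53, rose by 0.17 (adjusted p = 0.038). Kif3b, a kinesin-2 motor subunit, fell by 0.11 and Mycn, a transcription factor of low level here (1.26 to 1.51 CPM in vehicle), fell by 0.90. The median log2 change of the list was -0.04, beside 0.00 over all genes tested.

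Of 28 genes of the stress kinase pathways around p38, 8 rose and 8 fell in the average palmitate effect, 57.1% against 39.7% over all genes tested. Jun, a transcription factor at the end of the JNK branch, rose by 0.59 on the log2 scale, and Gadd45a, a stress-induced activator of the upstream kinase MAP3K4, rose by 0.35. Of the relatives of Gadd45a, Gadd45g fell by 0.54, and Gadd45b had -0.002 and did not pass (adjusted p = 0.992, edgeR). Rps6ka4, a kinase that p38 activates, rose by 0.29, whereas its relative Rps6ka5 fell by 0.51. Mef2c, a transcription factor that p38 phosphorylates, fell by 0.53. Of 20 targets of p53, 6 rose and 3 fell, and their share of 45.0% is near the 39.7% over all genes. Cdkn1a, the cell cycle inhibitor p21, rose by 0.82, from 49.3 to 64.4 CPM in vehicle to 90.3 to 102 CPM in palmitate, groups that did not overlap. Aen, a nuclease, rose by 0.40 and the stress sensor Sesn2 by 0.31, whereas its relative Sesn1 fell by 0.56.

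The classical relatives of Dusp26 moved in the other direction. Of 9 MAP kinase phosphatases tested, 7 rose and 0 fell in the average palmitate effect, 77.8% against 39.7% over all genes, with a median log2 change of 0.43. Dusp4 rose by 1.53, from 21.6 to 36.1 CPM in vehicle to 64.3 to 91.6 CPM in palmitate. Dusp6, which acts on ERK, rose by 0.61, Dusp5 by 0.55 and Dusp8 by 0.43. Among 11 tested atypical phosphatases other than Dusp26, 3 rose and 2 fell, 45.5% and again near the share over all genes. Dusp3, the founding atypical member, rose by 0.49, Dusp22 by 0.33 and Dusp12 by 0.24. Dusp19 fell by 0.46, close to the change of Dusp26. Dusp13 had 66 counts in all libraries together, and its log2 change of 0.30 did not pass (adjusted p = 0.686).

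Genes of beta cell identity fell with palmitate, 19 of 26 with 1 higher, where 19.4% of all genes tested were called lower, and their median log2 change of -0.28 was smaller in size than that of Dusp26. Mlxipl, the glucose-responsive factor ChREBP, fell by 1.12, Glp1r, the incretin receptor, by 0.89, Slc30a8, the zinc transporter of insulin granules, by 0.78, Pdx1, a master regulator of beta cells, by 0.52 and Nkx6-1 by 0.49. Foxo1, a factor that guards beta cell identity under stress, fell by 0.28. Of 18 genes listed for dedifferentiation and progenitors, 8 rose and 2 fell, 55.6% against 39.7% over all genes. Myc rose by 1.01 and Slc16a1, a lactate transporter normally silent in beta cells, by 1.13, both from low levels (6.87 to 11.0 and 1.66 to 2.48 CPM in vehicle). Serpina7 rose by 0.98 and Nnat, which is imprinted and abundant in mature beta cells, fell by 2.58. Aldh1a3, the usual marker of dedifferentiated beta cells, had 0.28 and did not pass (adjusted p = 0.152). 

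The receptor for C3a was present. C3ar1 held 11.5 to 12.5 CPM in vehicle and 9.26 to 12.3 CPM in palmitate, with an average palmitate effect of -0.10 that did not pass (adjusted p = 0.528, edgeR). Of 9 tested genes of the C3a receptor and adipsin pathway, 3 rose with palmitate and 0 fell, 33.3%, which is below the 39.7% over all genes. Gnai2 and Gnai3, alpha subunits of inhibitory G proteins through which C3ar1 can signal, rose by 0.25 and 0.14, and C5ar1, the receptor of the related fragment C5a, by 0.45. Cfd, the gene of adipsin, had 2 counts in all 12 libraries. In the average C3a effect, 0 genes of any of the 8 lists passed the threshold by edgeR.

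**Figure D5:**
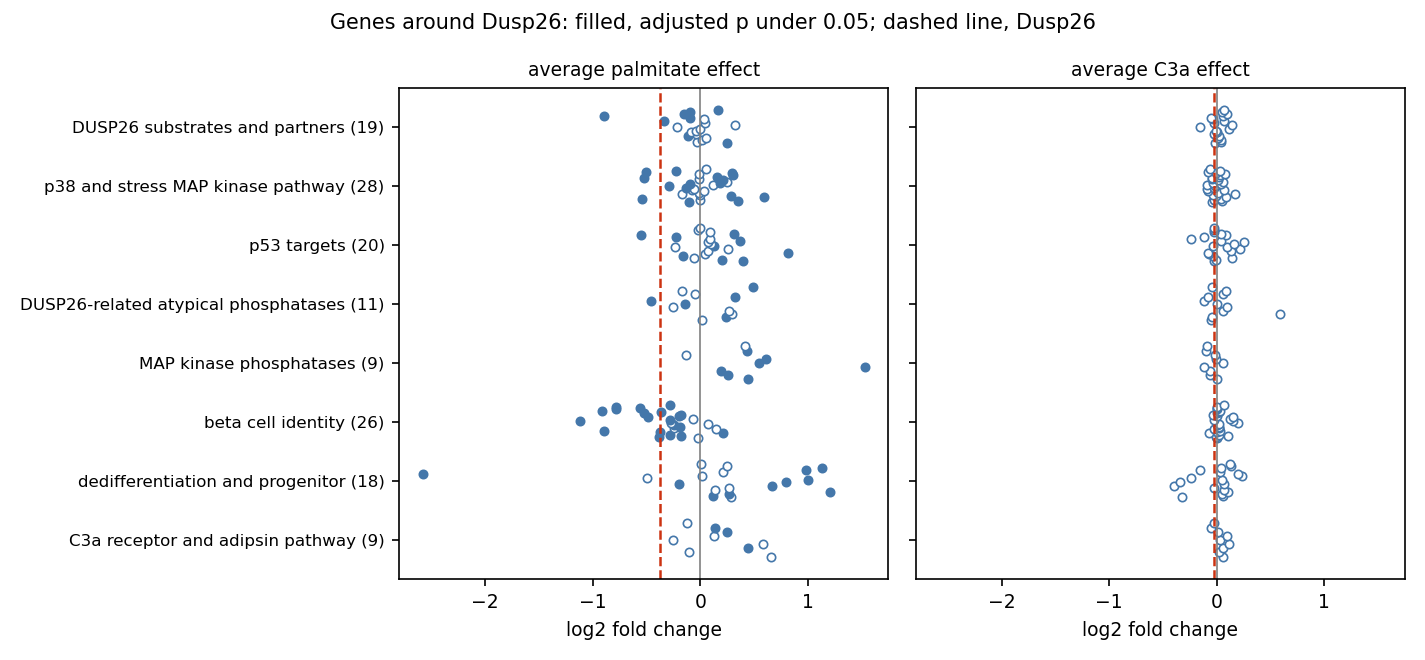
Log2 fold change of the tested genes of 8 lists (rows, number tested in parentheses) for the average palmitate effect and the average C3a effect. Filled points have an adjusted p under 0.05 and the dashed line is Dusp26, at -0.37 for palmitate and -0.03 for C3a. With palmitate the MAP kinase phosphatases lie mostly to the right of 0 and beta cell identity genes to the left, and no point is filled for C3a.

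Several cell type markers passed the threshold with palmitate. Of 8 beta cell markers, 4 were called lower and 1 higher in the average palmitate effect, where 19.4% of all genes were called lower, and their summed level ran from 158860 to 191748 CPM without palmitate and from 134016 to 175825 CPM with it. Of 6 endothelial markers 5 were lower, with sums of 164 to 260 CPM without and 92.9 to 200 CPM with palmitate. Of 6 alpha cell markers 3 were lower, with sums of 25188 to 40012 CPM without and 25844 to 38020 CPM with palmitate. Fibroblast and pericyte markers were lower in 2 of 6, with sums of 310 to 628 CPM without and 167 to 1364 CPM with palmitate. Duct markers, 5 in number, had 1 higher and 1 lower, with sums of 422 to 499 CPM without and 498 to 610 CPM with palmitate. Of 6 Schwann and neural markers 3 were lower, with sums of 26.0 to 44.6 CPM without and 19.1 to 37.7 CPM with palmitate. The other sets had few calls. Among 6 tested acinar markers 0 were called. Delta cell markers were lower in 1 of 4, and pancreatic polypeptide cell markers higher in 1 of 2. Macrophage markers had 1 higher and 1 lower of 6, and lymphocyte markers 1 lower of 2 tested. The ranges given overlap between conditions, those of the duct markers barely, and the part of these cell types in the fall of Dusp26 was not tested.

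The genes whose profile was most like that of Dusp26 were ranked by Pearson r over the 12 libraries, on log2 CPM centred within batch, among 10953 genes with a mean of at least 5 CPM. Libraries of a group share a treatment and same-numbered ones a batch, so r is a description only. The 8 highest were Adgb (0.961), an androglobin, Cntnap2 (0.952), a neurexin-related adhesion protein, Mapkbp1 (0.949), a MAP kinase binding protein, Rpgr (0.942), Mtmr4 (0.941), a lipid phosphatase, Abca2 (0.941), a lipid transporter, Peg10 (0.936), an imprinted gene, and Sipa1l1 (0.935). The 4 lowest were Rrp7a (-0.966), for ribosomal RNA processing, the ribosomal protein gene Rpl17 (-0.964), Gipc1 (-0.962) and Hspe1 (-0.959), a mitochondrial chaperonin. Adgb fell by 0.40 and Peg10 by 0.76 in the average palmitate effect, and Hspe1 rose by 0.34.

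Many genes were almost as close. An r above 0.8 was reached by 906 genes and one below -0.8 by 1247. The places of the 12 named genes in the ranking were not stable: without replicate 3 of vehicle with C3a, 1 of the 8 and 0 of the 4 stayed, and centring on same-numbered libraries also kept 1 and 0. Leaving out any other library kept 4 to 7 of the 8.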

How the data were processed

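The deposited values are estimated counts per transcript, which the authors gave as whole numbers without normalization. Kallisto, DESeq2 and the build GRCm38 appear per the submitters' processing notes, with no role or version stated, and messenger RNA libraries were made with a strand-marking kit per the labels' protocols. For the transcriptome release and strand setting, nothing is given in the sources used here. Estimated counts divide reads among transcripts by a model, so a transcript's value is less certain than the gene total.

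Transcripts were matched by identifier to GENCODE M21 (69942 of 71524), summed to 22141 genes and rounded. The 1582 unmatched transcripts were left out. edgeR 4.0.16 in R 4.3.3 was run on all 12 libraries with filterByExpr by group (15794 genes, 41537 transcripts), TMM scaling (0.967 to 1.045) and a robust quasi-likelihood fit with group and batch, leaving 7 residual degrees of freedom. There were 8 comparisons, p-values were two-sided and adjusted by Benjamini-Hochberg over all features, and the threshold was 0.05. Standard errors are the log2 change divided by the square root of F. TPM values used annotated lengths, summed over transcripts. Permutation tests and intervals used Python 3.11.15 with scipy 1.17.1. The edgeR script was tested on simulated counts.

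The labels place same-numbered libraries in the same batch. Same-numbered libraries deviated together from their group means, with r of at least 0.395 in 18 pairs (mean 0.575), batch difference included. A batch difference alone could raise r in such pairs, so these values cannot show pairing. The numbers were taken to pair the libraries, and a fit with the number as a block was an alternative. Other alternatives were DESeq2 1.42.0, its size factors, no filter, no batch term, only the compared groups, batch 2 alone, 1 transcript alone and each library left out. A sum over coding transcripts and permutation within the number were added after seeing the data.

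The gene and the gene lists were chosen with earlier results of these data known. Named were Dusp26 and its transcripts, its neighbours, and the 8 genes most like it and the 4 least like it. Also named were up to 4 genes per list by smallest p for palmitate. Mapk14, Trp53, Fadd, Foxo1, C3ar1, Cfd, Dusp3 and Dusp13 were always included. The rule also selected up to 2 genes per list by smallest p for C3a, and several of these are not named. None of them passed the threshold in the average C3a effect by edgeR. Further phosphatases are named where levels are ranked, and Gadd45b, Gadd45g and Rps6ka5 as relatives of named genes. A gene that this rule also selects is not reported here.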

Additional observations from a re-analysis of the deposited data

How the results depend on the processing

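All alternatives for the gene total kept the palmitate effects below 0. Neither DESeq2's test or size factors, nor dropping the filter, nor the coding transcripts alone (chosen after seeing the data) changed a Dusp26 call. With the replicate block, the paired fit gave a log2 change of -0.39 for palmitate against vehicle (adjusted p = 0.00256, edgeR) and -0.37 for the average palmitate effect (0.000202), and it changed no call of Dusp26. Without the batch term, palmitate alone was -0.40 (adjusted p = 0.118) and palmitate with C3a -0.35 against vehicle with C3a (0.156) and -0.40 against vehicle (0.114), none past the threshold. With batch 2 libraries only these were -0.37 (0.209), -0.33 (0.256) and -0.36 (0.211), the average palmitate effect was -0.35 (0.0684), and C3a within palmitate was 0.0098. The fit on only the 2 compared groups gave -0.35 (0.150) for palmitate with C3a against vehicle with C3a. By construction these fits hold fewer samples or leave the batch difference in the residual spread. The most abundant transcript alone, Dusp26-201, gave 0.084 (0.958), -0.49 (0.464) and -0.14 (0.914) for the same 3 comparisons, -0.20 (0.652) for the average palmitate effect, 0.35 for C3a within vehicle, -0.57 for the interaction and 0.064 for the average C3a effect, none past the threshold. The cause was not tested.

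Leaving out each library in turn gave -0.45 to -0.35 for palmitate alone, -0.49 to -0.20 for palmitate with C3a against vehicle with C3a, -0.48 to -0.34 for palmitate with C3a against vehicle (8 of 12 past the threshold), -0.084 to 0.047 for C3a within palmitate, -0.19 to 0.091 for C3a within vehicle, -0.10 to 0.19 for the interaction and -0.10 to 0.043 for the average C3a effect. Dusp26-201 ran from -0.22 to 0.30 for palmitate against vehicle. The call of palmitate with C3a against vehicle was lost without vehicle replicate 1 (adjusted p = 0.0978) or 2 (0.0885), or without replicate 1 (0.095) or 3 (0.0932) of palmitate with C3a. Over all genes, palmitate against vehicle called 4005, 1841 without the batch term and 2058 with batch 2 only. The exact permutation test within the replicate number gave p = 0.03125 for the average palmitate effect, the smallest its 64 arrangements allow. At 410 to 935 counts a library, counting error alone is small for the gene total and large for the minor transcripts.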
